A study of Mus musculus with 4 samples.

Results

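The IκB proteins and the feedback inhibitors of NF-κB signalling are the brakes of this pathway, and their mRNA levels were read in primary mouse chondrocytes with and without TNF. There were 8 such genes: the classical IκB genes Nfkbia, Nfkbib and Nfkbie, the nuclear IκB genes Nfkbiz and Bcl3, and the genes of ubiquitin-dependent brakes, Tnfaip3, Tnip1 and Cyld. They were chosen by name, and a probe was taken as theirs when its RefSeq transcript was one of the gene (NM_010907, NM_010908, NM_008690, NM_030612, NM_033601, NM_009397, NM_021327 and NM_173369, in the order of the names above). This gave 11 probes of 55681 on the array, of which 55619 were kept once outlier spots were left out, and 8 genes of 37042, with 3 probes for Nfkbib, 2 for Tnip1 and 1 for each of the others.

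The chondrocytes came from 6-day-old mice of strain C57BL/6J. The control cells were Rela fl/fl, and the others were Prrx1-Cre; Rela fl/fl (conditional knockout, cKO), so the cells of all groups carried the floxed Rela allele and Cre came from a promoter of limb mesenchyme. Rela signal was not lower on the arrays of the latter, so they are called the cKO-labelled arrays. Cells were kept for 3 days with 10 ng/mL TNF or without it. Each combination of genotype and TNF was read on 1 array, so no value has a replicate, no test between conditions was run and no p-value is given.

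In resting cells, IκB proteins hold NF-κB dimers such as Rela with p50 in the cytoplasm. TNF activates the IκB kinases, IκB is degraded and the dimers enter the nucleus, where the genes of several of their own inhibitors are among the best known targets. New IκBα and A20, the protein of Tnfaip3, then shut the response down again. In cartilage, NF-κB is known for driving inflammatory and matrix-degrading genes in osteoarthritis.

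Promoter sequence was set beside the arrays because the genes named above are textbook NF-κB targets to unequal degrees. In the RefSeq annotation of GRCm38.p6, 7 of the 8 genes had a window of 250 bases before to 50 bases after a transcription start (Nfkbiz was not among them), and Tnfaip3 had a window at each of 2 starts. Both strands were searched for the NF-κB consensus, the general site of 10 bases bound by NF-κB dimers. It was found in 6 of the 7 genes, against 5.14% of 27025 genes and 4.51% of 32851 windows in the table. The looser pattern of GGG, any 5 bases and CC, which holds every consensus match, was in 6 of the 7 genes too, but was also in 50.8% of all windows. The window of Nfkbib held neither. The stretches around the matches are given on the strand of the gene with the consensus match in capitals. They show how the sites of the genes that rose most with TNF in control cells, Nfkbia and Tnfaip3, compare with those of the rest.
Nfkbia, chr12:55492648-55492721, minus strand: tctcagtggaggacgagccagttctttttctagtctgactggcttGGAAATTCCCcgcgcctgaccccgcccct
Tnfaip3, chr10:19015411-19015580, minus strand: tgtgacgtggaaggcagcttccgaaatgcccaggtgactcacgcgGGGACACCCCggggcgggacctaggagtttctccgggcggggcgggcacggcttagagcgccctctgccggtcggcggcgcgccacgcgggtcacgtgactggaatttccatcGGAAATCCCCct
Nfkbie, chr17:45555549-45555648, plus strand: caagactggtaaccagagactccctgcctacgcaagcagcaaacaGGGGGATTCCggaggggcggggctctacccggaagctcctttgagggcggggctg
Bcl3, chr7:19822734-19822763, minus strand: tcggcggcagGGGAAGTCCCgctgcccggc
Tnip1, chr11:54962957-54963043, minus strand: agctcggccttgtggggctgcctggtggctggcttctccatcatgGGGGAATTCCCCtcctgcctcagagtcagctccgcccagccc
Cyld, chr8:88696863-88696892, plus strand: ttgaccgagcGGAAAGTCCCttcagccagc

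The match of Nfkbia lay on the opposite strand, 29 bases before the start. Tnfaip3 had a match on its own strand 125 bases before 1 start and a match on the opposite strand 12 bases before the same start, while the window of its other start had none. The Nfkbie match lay on the strand of the gene 106 bases before the start. The match of Bcl3 lay on the opposite strand, just after the start. In Tnip1, 4 overlapping matches on both strands began 58 bases before the start, and the match of Cyld lay on the opposite strand 155 bases before its transcription start, and the annotated span of the gene begins inside the match. For Bcl3 and Cyld only 30 bases are given, since the match lies at or after an annotated start. These are matches of letters, and binding of Rela to them was not measured here.

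**Figure D1:**
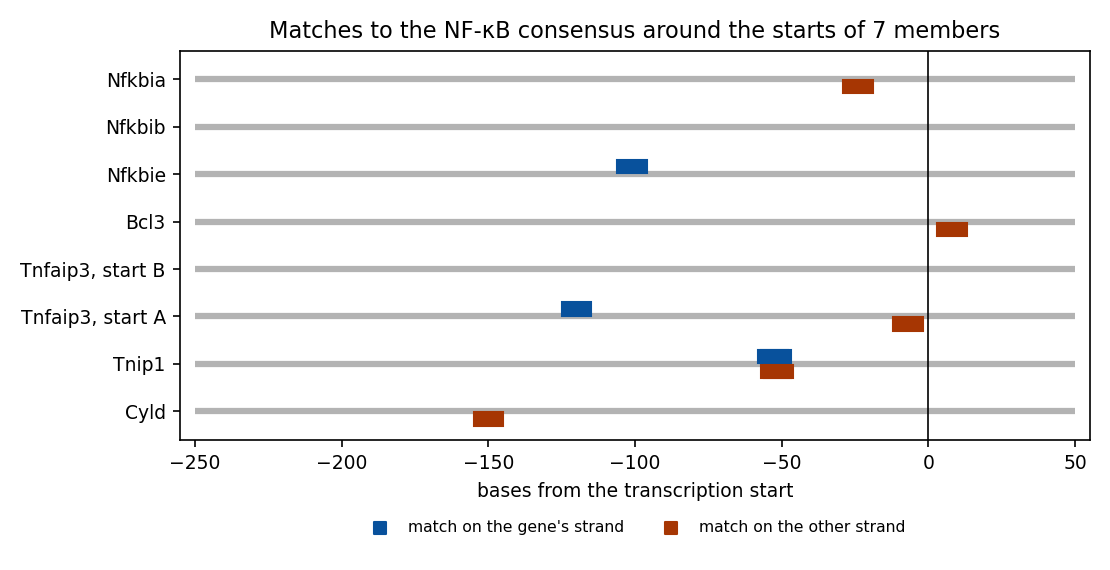
Positions of NF-κB consensus matches in the promoter windows of 7 genes. The horizontal axis gives bases from the annotated transcription start (0), from 250 before to 50 after it, with 1 grey line per window; blue boxes are matches on the strand of the gene and brown boxes matches on the other strand. Tnfaip3 has windows at 2 starts (A and B), of which A holds 2 matches, and Nfkbib has none.

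The signal given for a probe is its processed intensity over the 75th percentile of its own array, so that 1 is that percentile. This percentile was 590 to 634 intensity units, and 50.9% to 58.1% of all probes were well above background on an array. Signals of different probes cannot be set against each other, so levels are compared only within a probe. All 11 probes of the 8 genes were well above background on all 4 arrays, by the flag of the scanner's software. The scanner's own error for these probes was 10.0% to 13.6% of the intensity. The error that could be measured was that within an array. Of 399 probes spotted 10 times, 173 to 215 were used on an array. Each of these had every spot well above background and no outlier spot. Over them, the SD of a single spot was 0.09 to 0.10 on the log2 scale. For a log2 difference between arrays, this within-array SD gave 0.14, called the technical SD. It leaves out the spread between cultures and animals, which these arrays do not give. In RNA from a whole culture, fewer cells that express a gene and less RNA per cell cannot be told apart.

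With TNF, the signal of 3 of the 8 genes was at least 2-fold higher in control cells, namely Tnfaip3, Nfkbia and Bcl3. Of all 23408 genes tested, 2.39% were that much higher, and 0.839% of the 13350 genes with a symbol and a signal well above background on every array. At a limit of 1.5-fold, Nfkbiz and Nfkbie were counted too, giving 5 of 8 genes against 2.5% of these 13350. On the cKO-labelled arrays, none of the 8 genes rose 2-fold with TNF, against 1.04% of 24903 genes tested, and 2 of 8 rose 1.5-fold, against 1.63% of the 13350. The count of 2 depended on the processing, being 1 (Nfkbia) without scaling, under normexp background correction and in the authors' table, 3 under quantile normalization and 4 with centring on the median. The median change of the 8 genes was 0.86 on the log2 scale in control cells and 0.34 on the cKO-labelled arrays, while the median over all genes tested was 0.01 and 0.06. For 6 of the 8 genes, the control array with TNF held the highest signal of the 4. For Nfkbiz and Tnip1 among them, its lead over the next array (0.25 and 0.22) was within 2 technical SD. How often this array was highest over all genes was not counted.

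**Figure D2:**
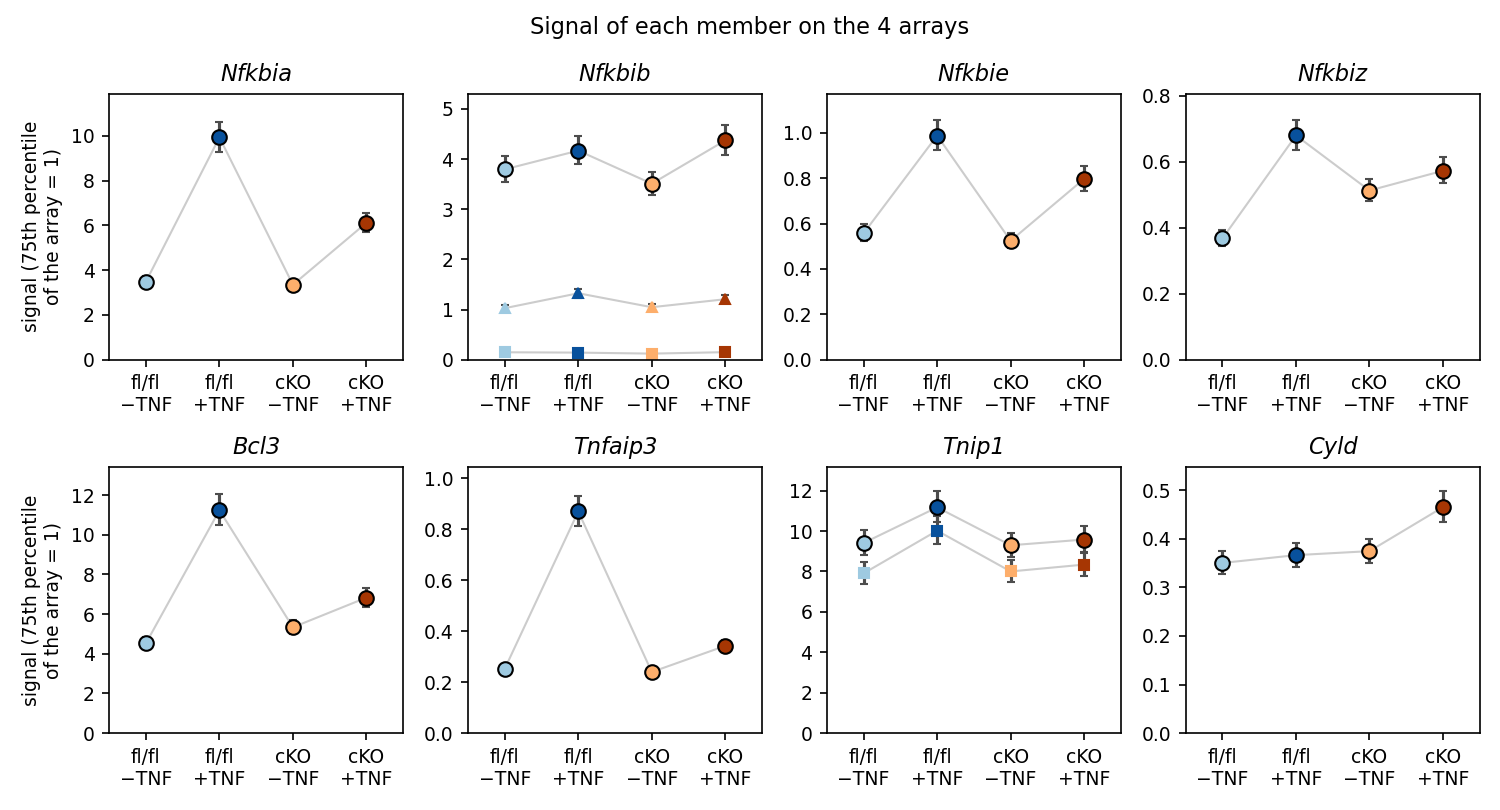
Signal of each gene on the 4 arrays, with 1 panel per gene and its own vertical axis starting at 0 (signal relative to the 75th percentile of the array). Each point is 1 array, bars are the technical SD of a spot within an array, circles are the probe with the highest mean and squares or triangles are other probes of the gene. The control array with TNF stands above the other 3 for Nfkbia, Nfkbie, Nfkbiz, Bcl3, Tnfaip3 and Tnip1. For Nfkbiz and Tnip1 its lead is within 2 technical SD of a difference.

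Among the classical IκB genes, Nfkbia encodes IκBα, the IκB that is degraded first after TNF and that NF-κB makes anew. Its signal was 3.48 in control cells without TNF, 9.93 with TNF, 3.35 on the cKO-labelled array without TNF and 6.11 on the cKO-labelled array with TNF. Both arrays with TNF were above both without it, and the arrays without TNF differed by less than the technical spread. The rise with TNF was 2.85-fold in control cells (1.51 on the log2 scale) and 1.83-fold on the cKO-labelled arrays (0.87). On the log2 scale, 57.5% of the change seen in control cells was seen on the cKO-labelled arrays (50.3% to 68.1% over the alternatives).

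Nfkbie, the gene of IκBɛ, which also binds Rel proteins and is resynthesised more slowly than IκBα, had the same order of arrays. Its signal was 0.558 without and 0.988 with TNF in control cells, and 0.524 and 0.797 on the cKO-labelled arrays. The log2 rise was 0.83 and 0.60, and the gap of 0.22 between these changes was close to its technical SD of 0.20 and fell to 0.10 with centring on the median. The array with TNF labelled cKO lay 0.31 below the control array with TNF, about 2 technical SD (0.28).

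Nfkbib encodes IκBβ, which acts more slowly and whose gene is not a typical target of NF-κB. The probe with the highest mean gave a signal of 3.79 without and 4.17 with TNF in control cells, and 3.51 and 4.37 on the cKO-labelled arrays. In the order of these 4 signals, no neighbours differed by more than 2 technical SD. The log2 change with TNF was 0.14 in control cells and 0.32 on the cKO-labelled arrays, of which the latter was past 2 technical SD (0.28) as scaled here, but not without scaling (0.21), under quantile normalization (0.23) or in the authors' table (0.20). The spot of this probe on the cKO-labelled array without TNF lay among spots that were bright on that array alone. Its other probes read 0.121 to 0.150 and 1.03 to 1.32 over the 4 arrays, and changed with TNF by -0.07 and 0.37 in control cells and by 0.31 and 0.20 on the cKO-labelled arrays. The dimmest probe differed by -0.29 between genotypes without TNF, past 2 technical SD, and the spot behind 0.37 also lay among bright spots. The 3 probes of Nfkbib thus did not share a sign in control cells.

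Bcl3 and Nfkbiz encode nuclear IκB proteins, which bind p50 and p52 on DNA and can act as coactivators as well as inhibitors. Bcl3 had a signal of 4.53 in control cells without TNF and 11.2 with TNF, and of 5.34 and 6.83 on the cKO-labelled arrays. The control array with TNF stood apart, and the other 3 ran from 4.53 to 6.83. The rise was 2.48-fold (log2 1.31) in control cells and 1.28-fold (log2 0.36) on the cKO-labelled arrays, so that 27.2% of the log2 change was seen there. This change depended on the processing, being 0.60 with centring on the median and 0.24, within 2 technical SD (0.28), in the authors' table, so that the share ran from 19.1% to 41.7%. Without TNF, Bcl3 was 0.24 higher on the cKO-labelled array, which is within 2 technical SD (0.27). It was 0.28 higher without scaling, which is past that limit, and 0.15 higher with centring on the median.

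Nfkbiz encodes IκBζ, which is needed for a subset of secondary NF-κB targets. Its signal was 0.367 without and 0.679 with TNF in control cells, a rise of 1.85-fold (log2 0.89). On the cKO-labelled arrays the signal was 0.512 without and 0.572 with TNF, a log2 change of 0.16 that did not exceed 2 technical SD as scaled here. It was 0.40, past 2 technical SD (0.28), with centring on the median and 0.05 in the authors' table. The control array without TNF had the lowest signal, and the cKO-labelled array without TNF lay 0.48 above it on the log2 scale, the only difference between the genotypes without TNF past 2 technical SD among the brightest probes of the 8 genes as scaled here.

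Tnfaip3 encodes A20, an enzyme that edits ubiquitin chains on the signalling complex of the TNF receptor and so ends the activation of the IκB kinases. Its signal was 0.253 in control cells without TNF, 0.870 with TNF, 0.240 on the cKO-labelled array without TNF and 0.343 on the cKO-labelled array with TNF. The control array with TNF was above the others by at least 1.34 on the log2 scale, and the arrays without TNF were level within the technical spread. The rise of 3.44-fold (log2 1.78) in control cells was the highest of the 8 genes. On the cKO-labelled arrays it was 1.43-fold (log2 0.51), or 28.8% of that log2 change (20.7% to 39.6% over the alternatives). The change on the cKO-labelled arrays depended on the processing, being 0.32 under normexp background correction, 0.67 under quantile normalization and 0.75 with centring on the median. In control cells it was 1.52 under normexp.

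Tnip1 encodes ABIN1, a ubiquitin-binding partner of A20. Its brighter probe read 9.41 without and 11.2 with TNF in control cells, and 9.30 and 9.58 on the cKO-labelled arrays. The log2 change was 0.25 in control cells and 0.04 on the cKO-labelled arrays, both within 2 technical SD as scaled here. With centring on the median they were 0.37 and 0.28, past 2 technical SD, and the latter changed sign under other scalings. The other probe of Tnip1 gave 0.34, which is past 2 technical SD, and 0.06.

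Cyld encodes a deubiquitinase that removes chains from several proteins of the same complex. Its signal was 0.350 without and 0.366 with TNF in control cells and 0.374 without TNF on the cKO-labelled array, and these 3 signals differed by less than the technical spread. The cKO-labelled array with TNF read 0.465, the highest of the 4, and lay 0.31 above the one without TNF (0.20 to 0.55 over the alternatives) and 0.34 above control cells with TNF. The Cyld order thus ran opposite to that of Tnfaip3 on the arrays with TNF.

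Ranked from the largest rise with TNF in control cells over 13350 genes, Tnfaip3 was number 40, Nfkbia 55, Bcl3 69, Nfkbiz 141 and Nfkbie 162. Tnip1 was number 1343, Nfkbib 2907 and Cyld 4817. On the cKO-labelled arrays, Nfkbia was number 89, Nfkbie 202 and Tnfaip3 324, while Bcl3 was number 791 and Nfkbiz 3874. The 5 genes that rose 1.5-fold in control cells thus did not keep their order on the cKO-labelled arrays, where Nfkbia came first. Nfkbie and Tnfaip3 lay within the technical spread there, and their order turned under quantile normalization.

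**Figure D3:**
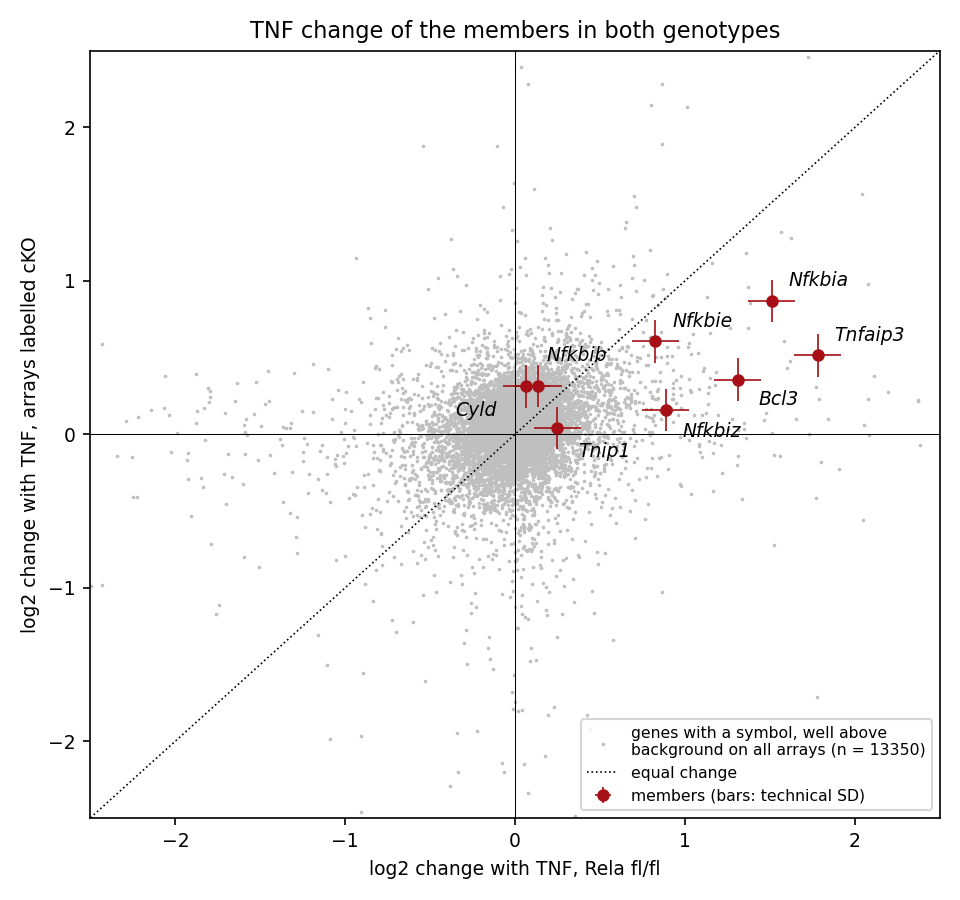
Log2 change with TNF in control cells (horizontal axis) and on the cKO-labelled arrays (vertical axis), for the 8 genes (red, with technical SD as bars) and for the 13350 genes with a symbol and a signal well above background on every array (grey). The dotted line marks equal change, and 76 grey genes lie outside the axes. Nfkbia, Tnfaip3, Bcl3, Nfkbiz and Nfkbie lie to the right of the dotted line, and Nfkbib and Cyld lie left of it.

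The change with TNF on the cKO-labelled arrays was at least 1.5-fold smaller than in control cells for 4 of the 8 genes, against 3.37% of 13350 genes. The gap was 1.27 on the log2 scale for Tnfaip3, 0.95 for Bcl3, 0.73 for Nfkbiz and 0.64 for Nfkbia, each written as the amount by which the change fell short, and each was past 2 technical SD of this gap (0.39). The count was 3 of 8 with centring on the median, where Nfkbia fell short of the 1.5-fold limit, and under normexp, where Nfkbiz did. All 5 genes that rose 1.5-fold in control cells had a smaller rise on the cKO-labelled arrays. This is near what other genes did, since of 329 others with a symbol that rose 1.5-fold in control cells, 300 had a smaller rise on the cKO-labelled arrays. The median of the gap was -0.65 over those 329 and -0.73 over the 5 genes. Both the 5 and the 329 genes were picked for their rise in control cells, so these counts are descriptions.

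Between the genotypes without TNF, none of the 8 genes differed 2-fold, against 7.9% of 24277 genes in either direction. The differences ran from -0.11 for Nfkbib to 0.48 for Nfkbiz, with a median of -0.04. With TNF, Tnfaip3 was 2-fold lower on the cKO-labelled array (log2 difference -1.34), which makes 1 of 8 genes against 3.19% of 24513. At 1.5-fold, Bcl3 (-0.72) and Nfkbia (-0.70) were lower as well, giving 3 of 8 against 3.07% of 13350. Nfkbie, Nfkbiz and Tnip1 were at -0.31, -0.25 and -0.22, Nfkbib at 0.07 and Cyld at 0.34. This comparison and that of TNF in control cells share the control array with TNF, so a high value there enters both, and their values stand side by side for each gene above.

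**Figure D4:**
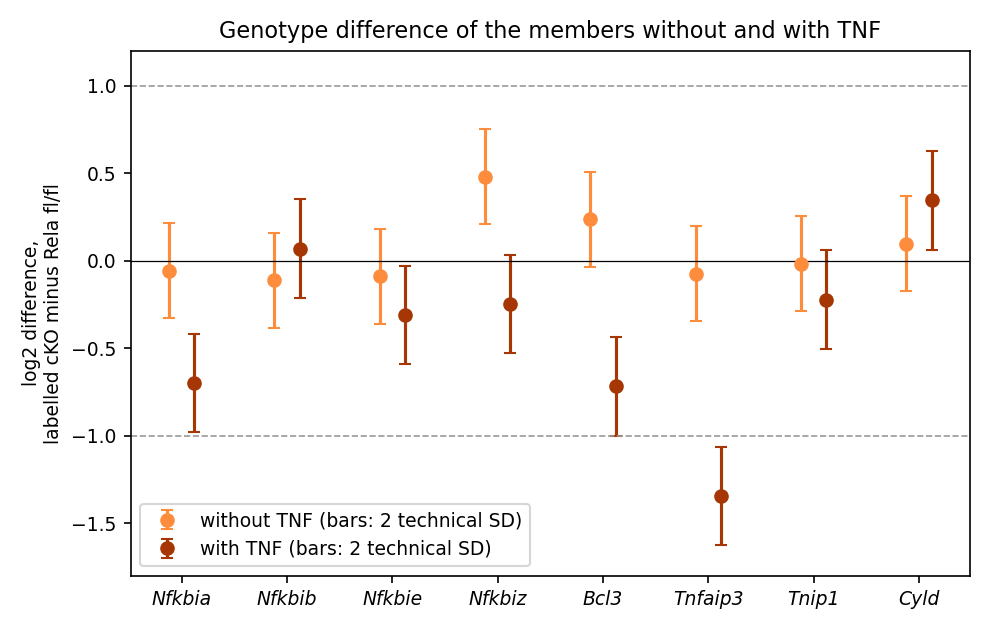
Log2 difference of the cKO-labelled array from the control array for the 8 genes, without TNF (light) and with TNF (dark); bars are 2 technical SD and dashed lines mark 2-fold. Without TNF all differences lie between -0.11 and 0.48, while with TNF Tnfaip3 lies below the dashed line at -1.34.

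Labels and libraries were checked beside these differences. The single Rela probe read 28.3 and 34.7 in control cells without and with TNF and 33.9 and 40.2 on the cKO-labelled arrays, so Rela mRNA was not lower there. The place of this probe relative to the floxed exons is not given in the sources used here, so it may check nothing. Genes that mark the sex of the cells also went with genotype: Xist was not well above background on the cKO-labelled arrays, and Ddx3y and Eif2s3y were 1.49 to 1.83 higher there on the log2 scale. All 10 chondrocyte markers, Col2a1 and Acan among them, were well above background on all arrays, with a summed signal of 1590 to 1665 in control cells and 1331 to 1361 on the cKO-labelled arrays. Col2a1 and Comp make up most of that sum, and single markers differed more without TNF: the log2 difference between genotypes was -1.85 for Matn1, -0.86 for Col9a1, -0.81 for Cnmd and -0.60 for Acan, against -0.03 for Col2a1. With TNF it was -1.18 for Matn1, -0.63 for Cnmd, -0.47 for Acan and -0.47 for Col9a1, against 0.00 for Col2a1. All 6 fibroblast markers were read as well (805 to 828 and 711 to 726), and 5 of 6 leukocyte markers, with Ptprc not well above background (summed signal 37.2 to 40.8 and 37.0 to 45.7, mostly Itgam). Without TNF, Thy1 of the fibroblast markers differed by -1.59 between genotypes, while Col1a1 was at 0.05, and Lyz2 and Adgre1 of the leukocyte markers differed by -2.11 and 2.87. With TNF, Thy1 was at -0.27, Lyz2 at -0.94 and Adgre1 at -0.50. Markers moved with TNF too: in control cells Lyz2 changed by -1.42, Thy1 by -0.69 and the chondrocyte markers by -0.43 to 0.03, and on the cKO-labelled arrays Adgre1 changed by -3.47, Thy1 by 0.63 and the chondrocyte markers by -0.16 to 0.38. The part of sex in the differences between genotypes, and of cell make-up in these and in the changes with TNF, was not tested. All arrays lay on 1 slide. Groups of spots bright on 1 array only, called patches, held 1.04% to 10.7% of the spots of an array, and held 2 of the 44 spot values of the 8 genes, both of Nfkbib. At least 3 such bright spots nearby make a patch. On the control array with TNF, Nfkbia had 2 nearby, and Bcl3, Nfkbiz and the brighter Tnip1 probe had 1 each, while Tnfaip3 and Nfkbie had 0.

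Other genes of the pathway were set beside the 8 inhibitors. Of 20 other brakes on NF-κB signalling, such as Nfkbid, Tnip2, Otulin and Traf3, none rose 2-fold or 1.5-fold with TNF in control cells. Of all genes tested, 2.39% rose 2-fold, and 2.5% of the 13350 genes rose 1.5-fold, so none of 20 is near these shares. On the cKO-labelled arrays, 1 of 20 did, against shares of 1.04% at 2-fold and 1.63% at 1.5-fold. This was Otud7b, which encodes a deubiquitinase of Traf3 (log2 change 1.15), and its spot lay in a patch on 2 arrays. Otud7b was also 1.27 higher on the cKO-labelled array than on the control array with TNF. The median change of the 20 genes was 0.07 in control cells and 0.10 on the cKO-labelled arrays, against 0.86 and 0.34 for the 8 inhibitors.

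Of 7 NF-κB subunits and IκB kinases that could be tested, Relb, which pairs with p52 in the non-canonical pathway, rose 2-fold in control cells (log2 change 1.02, and 0.57 on the cKO-labelled arrays). Nfkb2, the gene of p100 and p52, rose by 0.75 and 0.67. Rel was not well above background on the arrays, and the kinase genes Chuk, Ikbkb and Ikbkg changed by -0.02, 0.07 and -0.06 in control cells. None of 14 genes of the TNF receptor complex on which A20 and CYLD act, among them Tnfrsf1a, Tradd, Ripk1 and Traf2, changed 1.5-fold with TNF in either genotype. Of the 13350 genes, 2.5% rose 1.5-fold in control cells and 1.63% on the cKO-labelled arrays, so none of 14 is near these shares.

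Textbook NF-κB targets other than the 8 inhibitors covered a wider range. Of 21 that could be tested, 11 rose 2-fold with TNF in control cells, against 2.39% of all genes tested. On the cKO-labelled arrays 8 of 20 did, against 1.04%. In control cells, the log2 change was at least 7.49 for Saa3, an acute phase protein, 5.02 for the chemokine Ccl2, 4.64 for the matrix protease Mmp3 and 3.39 for the chemokine Ccl5, all beyond Tnfaip3 at 1.78. On the cKO-labelled arrays, Ccl2 still rose by 3.17, Ccl5 by 2.99 and Mmp3 by 2.56, against 0.87 for Nfkbia. Cxcl10 and Traf1 rose more there (2.29 and 2.14) than in control cells (0.86 and 1.01). Saa3 was well above background on the control array with TNF alone. Mmp13 changed by 1.09 in control cells and by -0.11 on the cKO-labelled arrays, where its signal without TNF was 1.04 above control. Of 14 targets read on all arrays that rose 1.5-fold in control cells, 11 had a smaller rise on the cKO-labelled arrays. The gap between the changes of a gene had a median of -0.57 over these 14 targets and of -0.73 over the 5 inhibitors. The median rise of the 14 was 1.05 in control cells and 1.25 on the cKO-labelled arrays, against 1.31 and 0.51 for the 5. Saa3 and Il6 are not among the 14, since they were not well above background on all arrays. Between the arrays with TNF, 8 of 21 targets were 2-fold lower on the cKO-labelled array, against 3.19% of 24513 genes. The 2 that were higher were Traf1 (1.05) and Ptgs2 (1.04). Relb, Nfkb2, Nfkb1 and Rel are counted in this list and in that of the subunits.

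**Figure D5:**
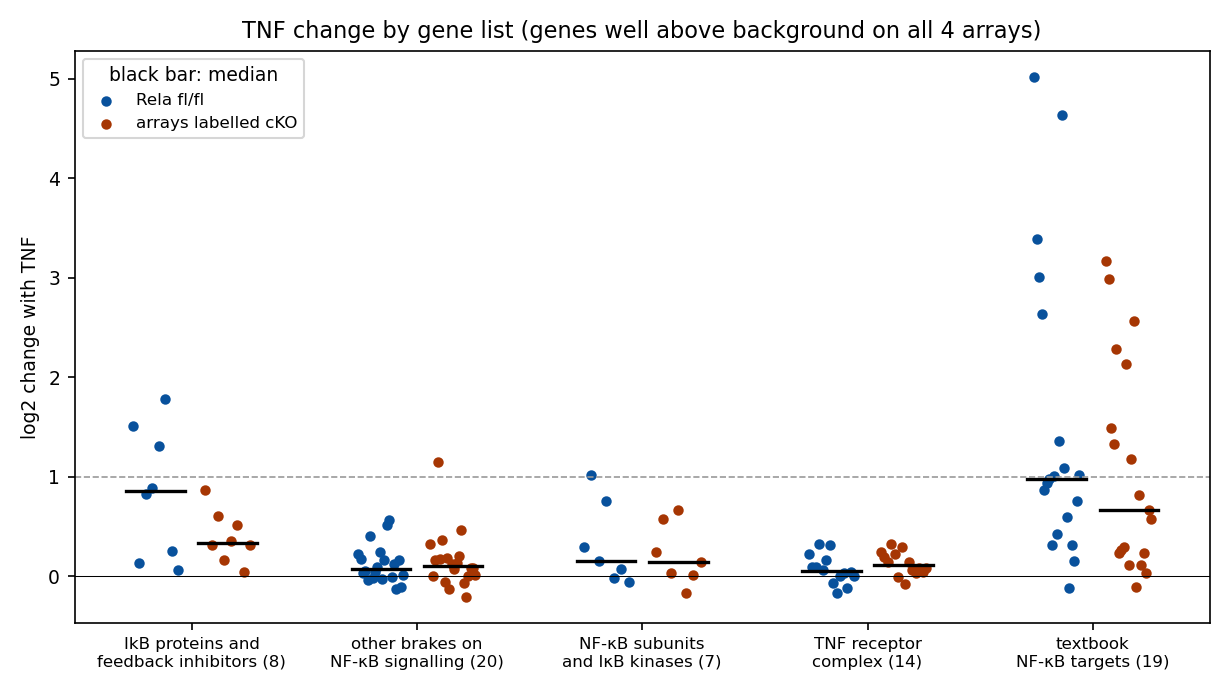
Log2 change with TNF for the 8 inhibitors and 4 lists of related genes, in control cells (blue) and on the cKO-labelled arrays (brown). Each point is a gene with signals well above background on all 4 arrays (their number in parentheses), black bars are medians and the dashed line marks 2-fold. The inhibitors have medians of 0.86 and 0.34, between the other brakes near 0 and the textbook targets, whose values reach 5.02.

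Promoter matches can be set beside the changes. Of 10654 genes with a promoter window and a signal well above background on every array, 669 had a consensus match, and 5.38% of these rose 1.5-fold with TNF in control cells, against 2.14% of the 9985 without a match. Among the 8 inhibitors, Nfkbia, Tnfaip3, Nfkbie and Bcl3 had a match and rose 1.5-fold, while Tnip1 and Cyld had a match and changed by 0.25 and 0.06. Nfkbib had no match and changed by 0.14. Of the lists above, 9 of 18 textbook targets with a window had a match, as had 5 of 16 other brakes, 2 of 5 subunits and kinases and 1 of 11 genes of the receptor complex. The share was 5.14% over 27025 genes.

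The genes whose 4 signals lay nearest to those of Nfkbia, as a root mean square distance of centred log2 signals over the 4 arrays, were Slc2a6 (0.14), Slfn2 (0.15), Col5a3 (0.18), Gpr176 (0.20) and Relb (0.20). Bcl3 was number 6 and Tnfaip3 number 8 of 13349 genes. Slc2a6, a sugar transporter, read 0.403 and 0.967 in control cells without and with TNF, and 0.426 and 0.690 on the cKO-labelled arrays. Nearest to Tnfaip3 were Col5a3 (0.08), Mrrf (0.08), Nkx1-2 (0.14), Gbp2 (0.17) and Gm9112 (0.18), and Nfkbia was number 13. The spots of Col5a3, Mrrf and Gm9112 lay in a patch of the control array with TNF, while those of Nkx1-2 and of Gbp2, an interferon-induced GTPase, did not. Gbp2 read 0.294 and 1.24 in control cells without and with TNF, and 0.301 and 0.353 on the cKO-labelled arrays.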

How the data were processed

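Primary chondrocytes were read on 4 1-colour Agilent arrays, 1 per genotype and treatment. Spot intensity as processed by Feature Extraction 10.10.1.1 (background subtracted) was deposited by the authors with a table of linear intensity values, each column of which was the processed intensity times 1 factor (1.83, 1.77, 1.79 and 1.78; medians 82.4, 74.2, 88.5 and 69.4, in the order Rela fl/fl without and with TNF, labelled cKO without and with TNF). The basis of these factors is unknown.

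Here, log2 intensity was centred on the 75th percentile of each array. Outlier spots were left out, repeated spots of a probe were averaged, and a gene was read by its probe of highest mean. A dim signal (not well above background) below the lowest bright one of its array was set to that value, and a higher one was kept, which makes a fold against it a lower bound. Symbols came from RefSeq (GRCm38.p6), which matched 20431 of 20809 NM accessions. The array files name another build (mm9), so promoter coordinates are RefSeq's only.

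The 8 genes, the lists of related genes and the alternatives were chosen with earlier results of these data known, and the rule for patches (at least 3 of the 54 nearest spots that exceed their signal on every other array 2-fold) was chosen in earlier work after the data had been seen. Named are the 8 genes, the 5 genes nearest to Nfkbia and to Tnfaip3, list genes past 2-fold with the largest changes, and checks of the labels. The other genes of the lists and markers that are named were chosen after their values were seen. The result of 1 leukocyte marker is not reported here. Counting was tested on simulated data. Alternatives were other scalings, normexp (offset 50, limma 3.58.1 in R 4.3.3), the authors' table, filters, probe means, patches left out and fold limits. Python 3.11.15, numpy 2.4.6 and pandas 2.3.3 were used.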

Additional observations from a re-analysis of the deposited data

Results flagged for a closer look

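For Nfkbiz and Bcl3, the nuclear IκB genes, the difference between genotypes ran in opposite directions without and with TNF. Nfkbiz was 0.48 higher on the cKO-labelled array without TNF and had a log2 difference of -0.25 with TNF, a shift of -0.73. Bcl3 was at 0.24 without TNF and at -0.72 with TNF, a shift of -0.95. The Nfkbiz difference with TNF and the Bcl3 difference without TNF were within 2 technical SD (0.28 and 0.27) as scaled here, and past it without scaling (-0.32 and 0.28). Over all alternatives they ran from -0.32 to -0.17 and from 0.15 to 0.28. With 1 array per condition, the difference between these differences was not tested.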

How the results depend on the processing

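No 2-fold change of the 8 genes changed sign under the alternatives run. The 2 filters on dim probes could alter no value of the 8 genes, the mean over probes only those of Nfkbib and Tnip1, and leaving out patches only those of Nfkbib. Of the 215 values of single genes that an alternative altered, 198 moved by less than their technical SD and 17 by more. Centring on the median moved the median of all genes tested from 0.06 to 0.30 on the cKO-labelled arrays with TNF, and there the median of the 8 genes became 0.58 with 1 gene past 2-fold (Nfkbia, 1.11), while in control cells with TNF 4 genes were past 2-fold (Nfkbiz joined, just past the limit). Under normexp the median with TNF in control cells was 0.69. At 1.5-fold the counts were 5 (TNF in control cells), 2 (TNF on the cKO-labelled arrays) and 3 (lower on the cKO-labelled array with TNF). Set at that limit under the other alternatives, a comparison chosen after seeing the data, the 5 and the 3 did not change. The 2 became 4 with centring on the median, 3 under quantile normalization and 1 without scaling, under normexp and in the authors' table. At 3-fold, 1 gene (Tnfaip3) was past the limit with TNF in control cells and 0 between the arrays with TNF. Over all alternatives the medians ran from 0.69 to 0.97 and from 0.22 to 0.58 for TNF, and from -0.35 to -0.24 between the arrays with TNF. Without TNF the median ran from -0.13 to 0.01, so its sign depended on the scaling. The TNF change of Cyld and Nfkbib in control cells (from -0.02 to 0.18 and from -0.07 to 0.25, the lowest for Nfkbib being that of its dimmest probe, which stood for the gene with patches left out) and of Tnip1 on the cKO-labelled arrays (from -0.07 to 0.28) also changed sign. No paired analysis was run because each condition has 1 array, and no array could be left out for the same reason. The number of arrays limits the precision of every value.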
